A study of Macaca fascicularis with 10 samples.

Results

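TPH2, SLC6A4 and SLC18A2 make, recapture and package serotonin, and they were read here for the balance between the copies inherited from the father and the mother. The genes were chosen by name, and all 3 were found among the 7229 genes of the deposited allele counts. The tissue was dorsal raphe nucleus from 10 female macaques (Macaca fascicularis, the cynomolgus macaque), and RNA sequencing gave each gene a count in a paternal and in a maternal column of each animal. The animals, daughters of labelled parents, form 1 group with no treatment, and no age, strain or genotype is given. They are numbered 1 to 10 in the order of the labels. The paternal share is the part of the allelic reads of a gene, in percent, that stands in the paternal column, so 50% is an equal contribution.

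Serotonin neurons of the raphe nuclei convert tryptophan to serotonin with the hydroxylase TPH2 and the decarboxylase DDC. SLC18A2, the vesicular monoamine transporter, loads the product into vesicles, and SLC6A4, the plasma membrane serotonin transporter that many antidepressants block, returns it to the cell after release. TPH2 and SLC6A4 mark serotonin neurons in the brain, while SLC18A2 is also used by dopamine and noradrenaline neurons. By symbol, in RefSeq's annotation of T2T-MFA8v1.1, TPH2 lies on chromosome 11, SLC6A4 on chromosome 16 and SLC18A2 on chromosome 9. None is therefore X-linked, and no member shares a chromosome with another.

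All libraries together ranged from 30090 to 999471 allelic reads per daughter, with the fewest in daughter 1. No member had a count in daughters 1 and 2. Titles carry the prefix 10203 in 6 daughters and 10480 in 4, which was treated as a possible batch. Which column is the father's was checked with imprinted genes, which are read from 1 parental copy. DLK1 and MEST, known to be expressed from the paternal copy, had 1.74% and 3.09% of reads in the paternal column of daughter 6, the reverse of daughter 3, where they had 98.6% and 91.3%. GRB10, imprinted in brain, had 5.08%, 2.97% and 9.16% in daughters 2, 6 and 9, against 96.0% to 98.2% in daughters 3, 4, 5 and 10. Which column is the father's is therefore in doubt in these daughters, and the mean shares and fitted ratios of TPH2 and SLC18A2 are also given without them, while SLC6A4 had no reads there. Daughters 7 and 8 had no reads of the 3 imprinted genes, and daughter 1 had 8 reads of GRB10 alone. Their columns were not checked, and daughters 7 and 8 stay in the values given without the doubted daughters. Shares of single daughters are given as labelled. Distances from 50%, and the size of a difference between genes within a daughter, do not depend on which column is the father's. The sign of such a difference does.

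The members were close to equal between the parental copies. In 7 daughters TPH2 stood between 45% and 56.1% paternal, and in its deepest library it was 51.6%. SLC6A4 and SLC18A2 were measurable in 2 and 3 daughters with 10 or more reads, all between 50.5% and 57.9%. No member differed between the columns in the model across all genes (edgeR's quasi-likelihood test, adjusted p = 1 for each of them). With a minimum of 5 daughters, that model tested 2 of the 3 imprinted genes and called 0. DLK1, whose interval left out 50% in each of 5 daughters, had a log2 ratio of 2.68 ± 1.81 (SE). A gene can therefore be one-sided in each daughter without being called, so the lack of a call cannot show balance. Of 30 possible values, 3 genes in 10 daughters, 13 held reads and 12 held 10 or more.

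**Figure D1:**
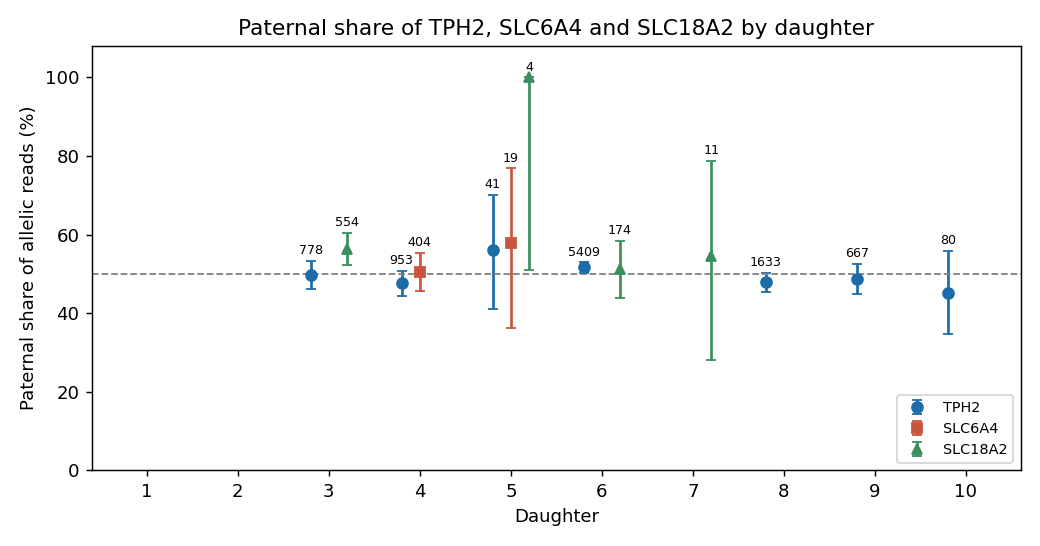
Paternal share (percent of allelic reads) of TPH2, SLC6A4 and SLC18A2 in each daughter, with 95% Wilson intervals and the read number printed above each point; the dashed line is 50%. TPH2 points lie between 45% and 56.1%, and intervals are wide where reads are few, as in daughter 5.

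TPH2, the hydroxylase that limits the rate of serotonin synthesis in brain, gave 387 paternal and 391 maternal reads in daughter 3, a paternal share of 49.7% (95% Wilson interval 46.2 to 53.2). Daughter 4 had 453 paternal and 500 maternal reads, 47.5% (44.4 to 50.7). Daughter 5 had 23 paternal and 18 maternal reads, 56.1% (41.0 to 70.1). These 3 intervals all include 50%. Daughter 6 had 2793 paternal and 2616 maternal reads, 51.6% (50.3 to 53.0), a ratio of 1.07 between the copies. Daughter 8 had 781 paternal and 852 maternal reads, 47.8% (45.4 to 50.3). Daughter 6 was the 1 daughter whose TPH2 interval left out 50%, and its shift was 1.64 percentage points. Daughter 9 had 325 paternal and 342 maternal reads, 48.7% (44.95 to 52.5), and daughter 10 had 36 paternal and 44 maternal reads, 45% (34.6 to 55.9). As labelled, the paternal column was higher in 2 daughters and the maternal in 5. Intervals cover counting error only, since reads without molecular identifiers are not independent molecules.

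Over daughters the TPH2 paternal share averaged 49.5% ± 3.55 (SD, n = 7), and the pooled reads of all 7 gave 50.2% of 9561 (49.2 to 51.2), of which daughter 6 supplied 56.6%. The fitted paternal over maternal log2 ratio was -0.04 ± 0.08 (SE), with an adjusted p of 1 by edgeR, where 0 of 2981 genes tested, 0%, were called in either direction. At an unadjusted p under 0.05 there were 93 of those genes by edgeR and 62 by DESeq2, which called 0 as well. An exact sign-flip permutation test over the 7 daughters gave a mean log2 ratio of -0.03 ± 0.20 (SD) and p = 0.703, two-sided, where the smallest p possible was 0.0156. The direction of the mean depended on which daughters were used. Within the title prefix 10203 the mean share was 51.3% (n = 4) and within 10480 it was 47.2% (n = 3). It was 49.2% ± 3.75 (SD, n = 6) without daughter 6 and 49.2% ± 4.19 (SD, n = 5) without daughters 2, 6 and 9. Without these 3 daughters the fitted log2 ratio was -0.07 (edgeR adjusted p = 1) and the sign-flip mean -0.04 (exact permutation p = 0.688). The pooled share rested on daughter 6, and without her it was 48.3% of 4152 reads (46.8 to 49.8), an interval that leaves out 50% on the other side.

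The distance of TPH2 from equality was small beside that of most genes. Its mean distance from 50% was 2.70 ± 2.09 percentage points (SD, n = 7), against a median of 7.66 over the 2981 genes tested, of which 3.42% had a smaller one. Among the 825 of them with 1000 or more reads the median was 5.29 points, and 9.70% had a smaller distance than TPH2. The SD of its share between daughters was 3.55 points, against a median of 9.53 over the genes tested and 6.75 over those with 1000 or more reads. Counting error alone, averaged over the 7 read numbers, would give an SD of 3.85 points. Weighted by read number, the variance between daughters was 2.16 times the binomial one, against a median of 2.01 over the genes tested and 2.88 over those with 1000 or more reads. By that measure TPH2 lay near the middle of the table, with 53.5% of the genes tested below it. Among those with 1000 or more reads 36.6% lay below it.

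**Figure D2:**
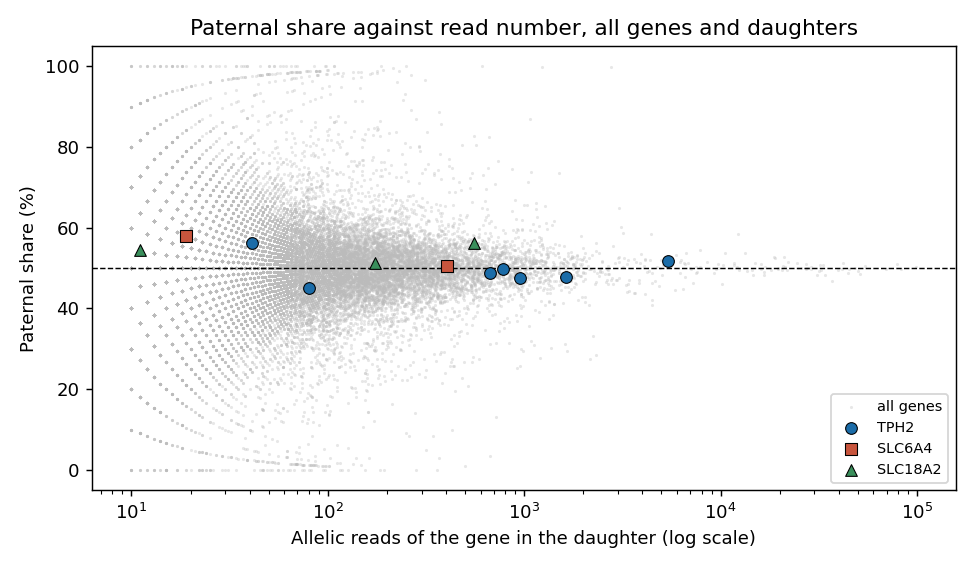
Paternal share (percent) against allelic reads of the gene in the daughter (log axis), with a grey point for each of the 27887 values that rest on 10 or more reads, and the 12 measurements of TPH2, SLC6A4 and SLC18A2 in colour. The cloud narrows towards 50% as reads increase, and the coloured points lie inside it.

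SLC6A4, the transporter that takes serotonin back up, had counts in 2 daughters. Daughter 4 had 204 paternal and 200 maternal reads, 50.5% (95% Wilson interval 45.6 to 55.3). Daughter 5 had 11 paternal and 8 maternal reads, 57.9% (36.3 to 76.9). Both intervals include 50%, and the daughter with few reads allows a ratio between the copies from 0.569 to 3.32. The mean was 54.2% ± 5.23 (SD, n = 2), while the pooled reads gave 50.8% of 423. With 2 daughters the gene did not reach the minimum of 5 daughters. Fitted with a minimum of 2, its paternal over maternal log2 ratio was 0.15 ± 0.34 (SE, edgeR adjusted p = 1), where 2 of 5122 genes, 0.039%, were called, neither of them a member. An exact sign-flip test of 2 values cannot give a p below 0.50.

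SLC18A2, which fills vesicles with serotonin and other monoamines, had its most unequal well-covered value in daughter 3. That daughter had 312 paternal and 242 maternal reads, 56.3% (95% Wilson interval 52.2 to 60.4), a ratio of 1.29. Daughter 6 had 89 paternal and 85 maternal reads, 51.1% (43.8 to 58.5), and daughter 7 had 6 paternal and 5 maternal reads, 54.5% (28.0 to 78.7). Among these 3 the interval left out 50% in daughter 3 alone. All 3 lay on the labelled paternal side, which is in doubt in daughter 6. In daughter 5 SLC18A2 had 4 paternal and 0 maternal reads, a Wilson interval of 51.0 to 100 but an exact Clopper-Pearson interval of 39.8 to 100, too few reads to place the share. Over daughters with 10 or more reads the mean was 54.0% ± 2.63 (SD, n = 3), and it was 55.4% ± 1.25 (SD, n = 2) without daughter 6. The pooled reads of these 3 gave 55.1% of 739 (51.5 to 58.6), and without daughter 6 they gave 56.3% of 565 (52.2 to 60.3). Both pooled intervals leave out 50%, and daughter 3 supplied 74.6% of all SLC18A2 reads. The log2 ratio with the minimum of 2 daughters was 0.37 ± 0.35 (SE, edgeR adjusted p = 1), and it includes the 4 reads of daughter 5, without which it was 0.22. Without daughters 2, 6 and 9 it was 0.57 (edgeR adjusted p = 1). The exact sign-flip test gave p = 0.25, the smallest that 3 daughters allow.

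Across the members 2 of 12 measurements, 1 each in daughters 3 and 6, had a Wilson interval that left out 50%, and 20.1% of the 27887 measurements of all genes did so. The median distance from 50% was 2.32 points for the members, against 6.20 for all measurements. By read number, this median was 5.55 points for the 4 member values under 100 reads, against 7.89 for all genes. For the 6 member values from 100 to under 1000 reads it was 1.21 points, against 3.88 for all genes. The 2 TPH2 values above that gave 1.91 points, against 2.11 for all genes. The bands are wide and read number was not matched within them, so part of these gaps may follow read number. Over all genes the intervals that left out 50% made up 16.3%, 26.9% and 51.0% of these bands, from few to many reads. The shift of TPH2 in daughter 6, 1.64 points, was smaller than the median of its band.

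In 4 cases a pair of members could be compared in the same daughter, where the size of a difference, but not its sign, is free of which column is the father's. In daughter 3 SLC18A2 was 56.3% and TPH2 49.7% paternal, a difference of 6.57 points (95% Newcombe interval 1.13 to 11.9). Fisher's exact test on those reads gave p = 0.0194, and 0.136 after Benjamini-Hochberg adjustment over the 7 differences computed. In daughter 6 the same genes were 51.1% and 51.6%, a difference of -0.49 points (-7.98 to 6.96). As labelled, the intervals of daughters 3 and 6 overlap. In daughter 4 SLC6A4 was 50.5% and TPH2 47.5%, a difference of 2.96 points (-2.84 to 8.74). In daughter 5 they were 57.9% and 56.1%, a difference of 1.80 points (-24.0 to 26.0). These tests compare reads of 1 library and not animals.

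Daughters that share a parent could be set side by side for TPH2 and SLC6A4, since a paternal or maternal chromosome may then be the same. Daughters 5 and 4, with the same father, had TPH2 shares of 56.1% and 47.5%, a difference of 8.56 points (95% Newcombe interval -6.82 to 22.9). Their SLC6A4 shares were 57.9% and 50.5%, a difference of 7.40 points (-14.8 to 27.0). Daughters 10 and 6, with the same mother, had TPH2 shares of 45% and 51.6%, a difference of -6.64 points (-17.1 to 4.33). That difference takes the columns of daughter 6 as labelled, and these are in doubt. All 3 intervals include 0, and each pair holds a daughter with 80 or fewer TPH2 reads.

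The copies of TPH2 followed each other across daughters over a wide range of levels. In CPM, counts scaled to the column's own total, TPH2 was at 50.1 in the paternal and 39.3 in the maternal column of daughter 5. In daughter 6 it was at 5588 in the paternal and 5236 in the maternal column. Pearson's r between the columns was 0.995 (exact permutation p = 0.000794, n = 7) and Spearman's rho 0.964 (exact permutation p = 0.00278), the only relation computed. Without daughters 6 and 8, the farthest from the median, r was 0.997 (exact permutation p = 0.0333, n = 5) and rho 0.90 (exact permutation p = 0.0833). The columns of a daughter come from 1 library and the same informative positions, those where her parents differ, so the relation follows their number as well as expression. TPH2 shares between 45% and 56.1% over so wide a range of levels already place r near 1. These p-values therefore add no evidence beyond the shares. The title prefixes hold 4 and 3 of these daughters, too few for a correlation within a prefix.

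**Figure D3:**
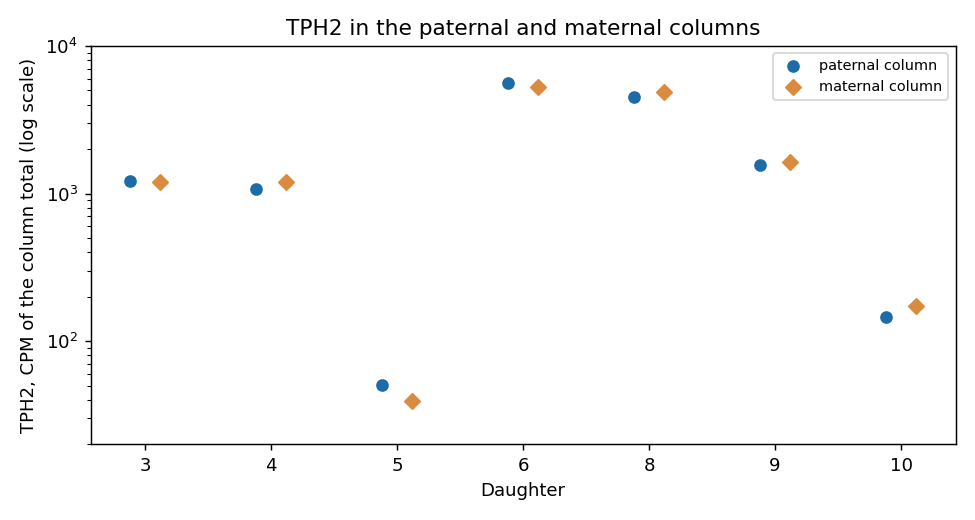
TPH2 in CPM of the column total (log axis) in the paternal (circles) and maternal (diamonds) columns of the 7 daughters with a count. The columns lie close together in each daughter, while daughters range from 50.1 and 39.3 CPM in daughter 5 to 5588 and 5236 CPM in daughter 6.

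Daughters differed far more in the amount of TPH2 than in its balance. Over both columns TPH2 was at 5412 CPM of allelic reads in daughter 6 and at 4689 in daughter 8. Daughters 9, 3 and 4 followed with 1597, 1198 and 1134 CPM. The lowest levels were 160 CPM in daughter 10 and 44.7 CPM in daughter 5, so the highest value was 121 times the lowest. The SD of log2 CPM was 2.53 over the 7 daughters, against a median of 0.84 over the genes tested, of which 99.9% had a smaller SD. Values under 10 reads were left out of each SD, which can narrow that of genes with few reads. TPH2, with at least 41 reads where it had a count, lost no such value, and this rank was not matched for read number. Each daughter is 1 library, so neighbours in this order have no spread of their own. A level of allelic reads follows the number of informative positions, the amount of RNA per cell and the number of serotonin neurons in the dissected piece, and these cannot be told apart here.

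Among daughters with a count of the gene, daughter 5 held the lowest value of TPH2, SLC6A4, SLC18A2 and DDC. The scale was again CPM of allelic reads, and the pattern was noticed after the values were seen. These genes had a count in 7, 2, 4 and 7 daughters, in that order, and daughters without a count were left out. SLC6A4 was at 20.7 in daughter 5 and 481 in daughter 4. SLC18A2 was at 4.36 in daughter 5, against 40.1, 174 and 853 in daughters 7, 6 and 3. DDC was at 7.63 in daughter 5, against 12.8 in daughter 2 and 36.1 in daughter 10, and between 139 and 1127 in the 4 others with a count. Daughters 5 and 2 each had 7 DDC reads, so their order in CPM rests on the library totals alone. Other genes of the pathway went both ways. TPH1, the hydroxylase of peripheral tissues, and the receptor gene HTR3A were also lowest in daughter 5, at 2.18 and 7.63, from 2 and 7 reads. PCBD1 was at 279 in daughter 5 and 175 in daughter 4, and ALDH2 at 955 in daughter 5 and 528 in daughter 2. PTS and HTR7 were also lower elsewhere. Daughter 5 had 917376 allelic reads in all, against 999471 in daughter 6, and the part of depth in these levels was not tested.

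**Figure D4:**
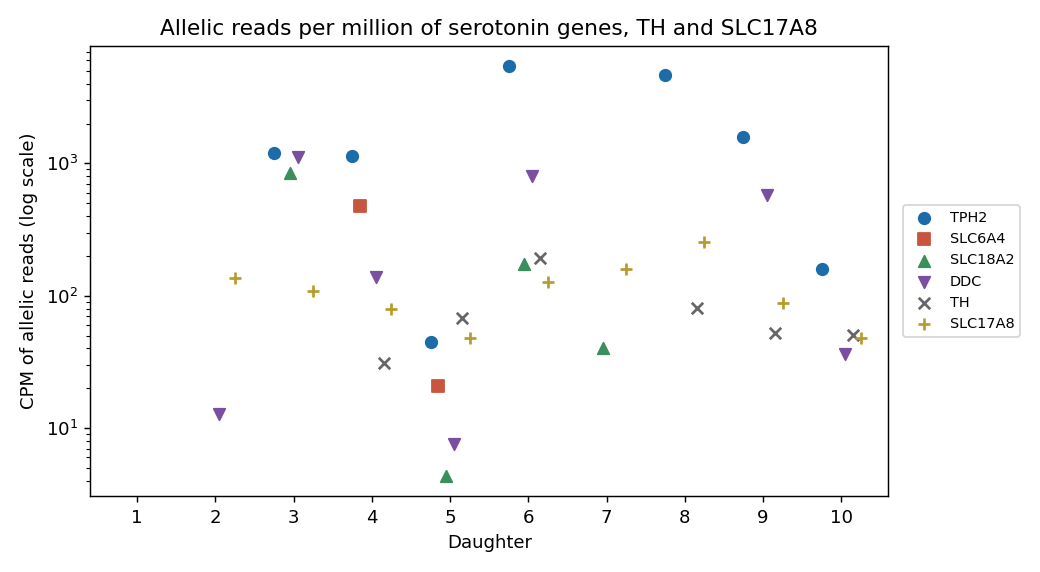
CPM of allelic reads (log axis) of TPH2, SLC6A4, SLC18A2, DDC, TH and SLC17A8 in each daughter; a missing point is a gene without a count there. Daughter 5 has the lowest TPH2, SLC6A4, SLC18A2 and DDC, at 44.7, 20.7, 4.36 and 7.63, while TH, at 67.6 there, is lower in daughter 4. DDC has 7 reads in daughter 5 and the same number in daughter 2.

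Markers of catecholamine neurons, which also use SLC18A2, were few in reads. All 5 markers (TH, DBH, SLC6A2, SLC6A3 and SLC18A1) had a row, and summed they ranged from 0 to 250 reads per daughter. In the 4 daughters with SLC18A2 counts they summed to 67, 71, 250 and 8 reads, for daughters 3, 5, 6 and 7. The noradrenaline enzyme DBH had a count in daughters 6 and 9 only, with 4 and 11 reads, and the noradrenaline transporter SLC6A2 had at most 2. TH, the enzyme that starts catecholamine synthesis, was at 67.6 CPM in daughter 5, between 30.9 in daughter 4 and 192 in daughter 6. The part of these neurons in the SLC18A2 values was not tested. SLC17A8, a glutamate transporter found in serotonin neurons of rodents, was at 48.0 CPM in daughter 5 and between 48.1 and 256 in the 8 others with a count. FEV, a transcription factor of serotonin neurons, and the markers fixed for astrocytes, oligodendrocytes and microglia had no row by symbol and were not analysed here.

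Other genes of the serotonin pathway varied in balance. Of 32 genes listed, 12 had a row, 4 of these could be tested, and edgeR called 0 in either direction. In these genes 19 of 41 measurements with 10 or more reads had a Wilson interval leaving out 50%, against 20.1% over all genes, and 13 of the 19 belonged to ALDH2 and MAOA. Without these genes it was 6 of 26, or 23.1%. DDC, which acts after TPH2, was at 54.6% ± 4.30 paternal (SD, n = 5), and at 54.7% ± 6.08 (SD, n = 3) without daughters 2, 6 and 9. PCBD1, which recycles the pterin cofactor of TPH2, was at 66.7% in daughter 4, 68.0% in daughter 5 and 53.8% in daughter 6. PTS, an enzyme of the synthesis of that cofactor, was at 50.04% ± 7.53 (SD, n = 5), and GCH1, its first enzyme, at 36.8% ± 32.2 over 3 daughters with at most 16 reads. MAOA, which breaks serotonin down and lies on X, ranged from 27.3% to 70.1% (n = 5), with every interval leaving out 50%. ALDH2, an aldehyde dehydrogenase that can act after MAOA, ranged from 14.9% to 65.6% (n = 10). TPH1, the hydroxylase of peripheral tissues, had at most 20 reads, and its 2 shares were 66.7% and 30%. The receptor genes HTR5A, HTR3A and HTR7 had at most 35 reads each, with means of 56.9%, 54.7% and 41.3%.

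The genes whose balance was most like that of TPH2 were found by the mean absolute difference in paternal share over the 7 daughters, among 707 genes with 10 or more reads in each of them. They were RAP1GDS1 at 2.10 percentage points, BOD1L1 at 2.33 and DNER at 2.37, against a median of 7.26 over the 707. RAP1GDS1, a regulator of small GTPases, was at 55.9% in daughter 5 and 45.2% in daughter 8. DNER, a neuronal transmembrane protein, was at 53.2% in daughter 5 and 50% in daughter 8. TPH2 itself was at 56.1% and 47.8% in these daughters.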

How the data were processed

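The authors deposited whole-number counts per gene, with paternal and maternal reads of each daughter apart, in 20 columns that name the build macFas5, per the file headers. Libraries were stranded total RNA after ribosomal RNA depletion, per the labels' protocols. Novoalign is the aligner named in the submitters' processing notes. Its version, the phasing of alleles and read filters are not given in the sources used here. Rows of redundant genes were summed, per the name of the deposited counts. A missing count entered the model as 0 reads and was left out of shares.

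The paternal column was set against the maternal with edgeR 4.0.16 under R 4.3.3 (glmQLFit and glmQLFTest, robust). Daughter was a block, because both columns come from 1 animal, and library size was the sum of both. A gene was tested where at least 5 daughters had at least 10 of its reads. The SE came from the F statistic, and p-values were adjusted by Benjamini-Hochberg over all genes tested, at 0.05. The model was tested on simulated data. Alternatives were DESeq2 1.42.0, other scalings and filters, and leaving out daughters. Single log2 ratios had 0.5 added to each count. SciPy 1.17.1, pandas 2.3.3 and NumPy 2.4.6 were used under Python 3.11.15, with matplotlib 3.10.9.

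Members, lists and bands of read number were chosen with earlier results of these data known. Named genes are the 3 members, up to 10 pathway genes with most reads, the imprinted genes, and the 3 most like TPH2. Markers of serotonin and catecholamine neurons come from the cell type lists.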

Additional observations from a re-analysis of the deposited data

Results flagged for a closer look

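ALDH2 stood apart in 1 daughter. Its paternal share was 14.9% of 47 reads in daughter 1 (95% Wilson interval 7.41 to 27.7), against 42.7% to 65.6% in the 9 others, a gap larger than Dixon's limit for 10 samples allows. Among 10 groups of values checked in this way, chance gives about 1 in 20. Daughter 1 had the fewest allelic reads of all, 30090, and the part of depth in this value was not tested. No value of TPH2 stood apart, and groups under 4 daughters, which include SLC6A4 and SLC18A2, were not checked.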

How the results depend on the processing

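Of 160 alternative values computed for 14 results, 149 kept their direction and their side of the threshold, or moved by less than the spread, and the adjusted p of every member rounded to 1 in all of them. Some alternatives could hardly move a value, as leaving out a daughter without reads of the gene, or a read limit that kept the same TPH2 daughters. The count of genes called, 0, became 2 with a minimum of 2 daughters and 2 with no filter, and 1 in the title prefix 10480 alone. Leaving out 1 daughter at a time gave 0 to 1, with the 1 without daughter 4. No called gene was a member. The alternatives for DDC, PCBD1 and the pathway intervals were chosen after seeing the data.

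For TPH2, the fitted log2 ratio was 0.0347 in the title prefix 10203 alone and the mean of the sign-flip test 0.0706, both on the other side of 0 from the values over all daughters. Leaving out 1 daughter at a time gave -0.0808 to -0.0132 for the fitted ratio and -0.0912 to 0.0139 for the sign-flip mean, which turned positive without daughter 10. The cause was not tested. Without the replicate block, which ignores that both columns come from 1 animal, the fitted ratio was -0.0283 and 0 genes were called. The mean share ranged from 48.4% to 50.3%, the mean distance from 2.13 to 3.11 points and r from 0.994 to 0.999 when 1 daughter was left out.

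For SLC18A2 the mean share was 65.5% with daughters of 1 or more reads, since daughter 5 then enters with 4 reads. Leaving out 1 daughter gave 52.8% to 55.4% for its share and 0.223 to 0.557 for its fitted ratio, with 0.557 without daughter 6. For SLC6A4 it gave a share of 50.5% to 57.9%. Its fitted ratio was 0.152 to 0.158 without 1 of the 8 daughters that hold no SLC6A4 reads, and had no value without daughter 4 or 5. That ratio was 0.0521 by DESeq2 and 0.0445 without the replicate block, against 0.15. The count of member intervals leaving out 50% was 1 to 2, with 1 without daughter 3 or 6. Prefix fits for TPH2 and for the count of genes called needed 3 daughters in 10203 and 2 in 10480. Those for SLC18A2 and SLC6A4 needed 1 daughter of the prefix. SLC6A4 in daughter 5 and SLC18A2 in daughters 5 and 7 rest on 19 or fewer reads. Daughter 5 had 917376 allelic reads in all and daughter 7 had 273992, and the part of depth was not tested.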
